A study of Mus musculus with 23 samples.

Results

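The 10 genes described here belong to the myeloid program of blood progenitors. They are 5 granule genes (Mpo, Elane, Prtn3, Ctsg and Ms4a3) and 5 regulators (Cebpa, Cebpe, Csf1r, Irf8 and Gfi1), chosen by name from the 32285 genes listed in every count matrix. All 10 were found in all 11 single-cell gene-expression libraries and passed the filter on low counts there. In the baseline tests of cell shares 8 of the 10 were measured, because Cebpe and Csf1r did not pass the minimum of 1% of cells.

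The cells were KSL cells, the c-Kit+ Sca1+ Lineage- fraction of mouse bone marrow that holds blood stem cells and multipotent progenitors. Every group carried Mx1-Cre, a Cre recombinase driven by an interferon-inducible promoter that is active in blood and in some other tissues, and the labels give no treatment. The groups were Control, Ezh2 KO (floxed Ezh2, recombined to Ezh2Δ/Δ) and Jarid2 KO (floxed Jarid2, recombined to Jarid2Δ/Δ). The Control is labelled by that word alone, and the labels name no strain. Titles of the baseline knockout libraries hold the word Control as well as the knockout's name, so genotype was read from the genotype field. Ezh2 is the enzyme of Polycomb repressive complex 2 (PRC2), which methylates histone H3 at lysine 27, and Jarid2 is one of its cofactors. The baseline experiment held 6 libraries from untransplanted mice 2 months old, 1 male (replicate 1) and 1 female (replicate 2) of each genotype. The transplant experiment held 5 libraries: 1 Control, 2 Ezh2 KO and 2 Jarid2 KO. There, 500000 donor (CD45.2) marrow cells competed with 500000 CD45.1 cells in lethally irradiated recipients, and donor KSL cells were sorted after 18 weeks. The labels do not say whether these 5 libraries came from separate recipients or what their sex was, so the p-values measure the spread between these libraries, which may be technical. The series also holds 6 antibody libraries of the baseline cells, used below to gate them, and 6 H3K27me3 CUT&Tag samples, not analysed here.

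Mpo encodes myeloperoxidase, which makes hypochlorous acid. Elane, Prtn3 and Ctsg encode the serine proteases neutrophil elastase, proteinase 3 and cathepsin G. All are packed into the primary granules of neutrophil precursors, and their messages appear in granulocyte-monocyte progenitors well before granules do. Ms4a3 encodes a membrane protein that marks those progenitors. The transcription factor C/EBPα (Cebpa) opens the myeloid path, and C/EBPε (Cebpe) acts later, in granule formation. Csf1r is the receptor for macrophage colony-stimulating factor. IRF8 favours the monocyte and dendritic branches and is also active in B cells, while GFI1 favours neutrophils and restrains monocyte genes.

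The libraries kept 6723 to 9208 cells at baseline and 4354 to 6149 after transplant, with median depths of 10764 to 12661 and 11786 to 17611 UMIs (unique molecular identifiers, 1 per captured transcript). Between 25.7% and 27.4% of barcodes were excluded for mitochondrial reads in the transplanted Ezh2 KO libraries, 36.6% to 37.4% in Jarid2 KO and 43.4% in Control. Any pair of libraries shared 4 to 31 kept cell barcodes. Cells with Xist and no Y-linked transcript made up 59.4% of the transplanted Control library and 48.3% and 49.9% of the Jarid2 KO libraries, but 0.0163% and 0.0511% of the Ezh2 KO libraries, so sex and genotype are partly confounded there. Ezh2 stood at 185 CPM (UMIs scaled to a common library total) in the transplanted Control, 38.8 and 47.0 in the Ezh2 KO pair and 171 and 185 in the Jarid2 KO pair. At baseline Ezh2 stood at 209 and 193 CPM in Control, 163 and 148 in the Ezh2 KO pair and 191 and 198 in the Jarid2 KO pair. Jarid2 was higher, not lower, in the libraries labelled Jarid2 KO, at 215 and 205 CPM against 159 and 150 in baseline Control and 57.3 and 57.1 against 38.5 after transplant. The labels do not give the deleted exons, and tags from the 3′ end of a transcript can lie outside them, so the Jarid2 counts do not check its deletion. The Ezh2 counts were lower in the Ezh2 KO libraries than in all others of the same experiment, but such tags do not measure the deletion itself.

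Prtn3 and Elane are neighbours on mouse chromosome 10, with 3137 bases and no other gene between them. On the GRCm38.p6 build Prtn3 lies at chr10:79879667-79883174 and Elane at chr10:79886312-79888216. Mpo lies at chr11:87793784-87804412, Ctsg at chr14:56099885-56102574 and Ms4a3 at chr19:11629499-11640851. Cebpa lies at chr7:35119293-35121928, Cebpe at chr14:54710363-54712174, Irf8 at chr8:120736358-120756694 and Gfi1 at chr5:107716655-107725805. The promoters of the granule genes are shown because these genes ran in the same order of groups below. Each is the 250 bases before the annotated start, on the strand of the gene, from RefSeq (GRCm38.p6), with matches to TTNNGNAA (a C/EBP motif) or GAGGAA (a PU.1 motif) on either strand in capitals.
Mpo, chr11:87793534-87793783 (plus strand): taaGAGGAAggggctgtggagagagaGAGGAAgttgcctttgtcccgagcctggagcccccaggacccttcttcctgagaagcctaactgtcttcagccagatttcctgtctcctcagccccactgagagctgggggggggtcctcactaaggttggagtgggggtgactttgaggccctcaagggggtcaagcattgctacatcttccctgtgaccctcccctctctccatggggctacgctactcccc
Elane, chr10:79886062-79886311 (plus strand): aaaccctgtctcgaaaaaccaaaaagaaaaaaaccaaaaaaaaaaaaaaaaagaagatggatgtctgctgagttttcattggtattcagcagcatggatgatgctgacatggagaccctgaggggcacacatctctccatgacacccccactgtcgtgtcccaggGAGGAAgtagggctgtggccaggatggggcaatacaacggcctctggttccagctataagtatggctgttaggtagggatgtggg
Prtn3, chr10:79879417-79879666 (plus strand): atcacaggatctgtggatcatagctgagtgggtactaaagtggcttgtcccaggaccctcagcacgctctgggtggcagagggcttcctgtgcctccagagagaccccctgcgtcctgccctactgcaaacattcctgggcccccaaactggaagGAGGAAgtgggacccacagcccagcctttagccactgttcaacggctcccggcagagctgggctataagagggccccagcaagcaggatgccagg
Ctsg, chr14:56102575-56102824 (minus strand): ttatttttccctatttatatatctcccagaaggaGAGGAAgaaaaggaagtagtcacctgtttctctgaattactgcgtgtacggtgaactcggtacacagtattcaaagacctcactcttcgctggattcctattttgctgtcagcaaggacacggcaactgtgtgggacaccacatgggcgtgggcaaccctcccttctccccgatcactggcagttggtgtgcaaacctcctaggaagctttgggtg
Ms4a3, chr19:11640852-11641101 (minus strand): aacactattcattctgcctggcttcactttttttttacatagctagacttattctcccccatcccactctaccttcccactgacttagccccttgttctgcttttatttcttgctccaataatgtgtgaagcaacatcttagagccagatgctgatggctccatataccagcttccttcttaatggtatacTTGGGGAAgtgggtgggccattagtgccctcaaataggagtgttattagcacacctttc

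The table of promoters held 8 of the 10 genes, and matches were counted in the first promoter listed for each. GAGGAA was found in 4 of the 8, all of them proteases or Mpo: 247 and 224 bases before the Mpo start, 85 before Elane, 95 before Prtn3 and 216 before Ctsg. It occurs in 23.3% of the 32851 promoters of the table. TTNNGNAA was found in 2 of the 8, 59 bases before the Ms4a3 start and 143 before Gfi1, against 36.8% of all promoters. Of 2 further motifs, TGTGGT (RUNX) was found in 1 of the 8, in Ctsg, against 14.0% of all, and AACNG (MYB) in 6 of the 8, against 74.2%. Irf8 has a further promoter in the table, which holds AACNG 2 times, so with it 7 of the 8 genes have a match. These matches describe letters, not binding.

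After transplant 2 of the 5 granule genes, Elane and Ms4a3, were called higher in Jarid2 KO than in Ezh2 KO. Elane stood at 1348 and 1476 CPM in the Ezh2 KO libraries, 2331 in the Control library and 3456 and 4982 in the Jarid2 KO libraries. The groups did not overlap, and the Control library lay between the knockouts. The Jarid2 KO minus Ezh2 KO difference was 1.60 on the log2 scale (SE 0.20, adjusted p = 0.00492, edgeR quasi-likelihood test with Benjamini-Hochberg adjustment over all genes), a 3.03-fold difference. Ms4a3 followed the same order, with 298 and 318 CPM in Ezh2 KO, 479 in Control and 512 and 716 in Jarid2 KO. Its difference between the knockouts was 1.02 (SE 0.16, adjusted p = 0.0106).

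The other 3 granule genes had the same order of groups and did not pass by edgeR, whereas DESeq2 called all 3. By edgeR, Mpo and Prtn3 passed without the count filter (adjusted p = 0.0326 and 0.0439), without Jarid2 KO 1 (0.0152 and 0.00911) and without Jarid2 KO 2 (0.02 and 0.0444), and Ctsg passed without Jarid2 KO 1 (0.0153). Mpo stood at 2221 and 2316 CPM in Ezh2 KO, 2601 in Control and 3262 and 3754 in Jarid2 KO, and its difference between the knockouts was 0.66 (SE 0.16, adjusted p = 0.0503). Prtn3 stood at 2257 and 2363, 2951, and 3042 and 4078 CPM in that order, a difference of 0.65 (SE 0.18, adjusted p = 0.0703). Ctsg stood at 1970 and 1971, 2218, and 2391 and 3290 CPM, a difference of 0.55 (SE 0.18, adjusted p = 0.114). In each of these 3 genes both Jarid2 KO libraries lay above both Ezh2 KO libraries, an order that was not counted over other genes.

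Among the regulators, Cebpe, Csf1r and Gfi1 rose in the same comparison. Cebpe stood at 50.1 and 53.4 CPM in Ezh2 KO, 59.4 in Control and 82.0 and 114 in Jarid2 KO, with a difference of 0.94 (SE 0.13, adjusted p = 0.00622). Gfi1 stood at 29.1 and 28.1 CPM in Ezh2 KO, 29.0 in Control and 41.2 and 55.7 in Jarid2 KO, with a difference of 0.78 (SE 0.12, adjusted p = 0.00937). Gfi1 in the Control library fell within the Ezh2 KO values, whereas Cebpe in the Control lay above both. Csf1r stood at 7.80 and 9.10 CPM in Ezh2 KO, 13.2 in Control and 14.0 and 13.8 in Jarid2 KO, with a difference of 0.75 (SE 0.11, adjusted p = 0.00905). Here the Control library was close to the Jarid2 KO libraries.

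By edgeR Cebpa and Irf8 did not pass. Cebpa stood at 38.1 and 30.9 CPM in Ezh2 KO, 33.0 in Control and 41.7 and 59.7 in Jarid2 KO (difference 0.57, SE 0.17, adjusted p = 0.0774), and DESeq2 called it (adjusted p = 0.0199), as did edgeR without the count filter (0.016) and without Ezh2 KO 1 or Jarid2 KO 1 (0.0429 and 0.0248). Irf8 stood at 120 and 126 CPM in Ezh2 KO, 123 in Control and 124 and 155 in Jarid2 KO (difference 0.21, SE 0.11, adjusted p = 0.285), and its groups overlapped. In all, 5 of the 10 genes were higher in Jarid2 KO than in Ezh2 KO and none lower, where 12.0% of the 15758 genes tested were called and 4.37% were called higher. The median difference was 0.70 over the 10 genes and 0.003 over all genes tested.

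**Figure D1:**
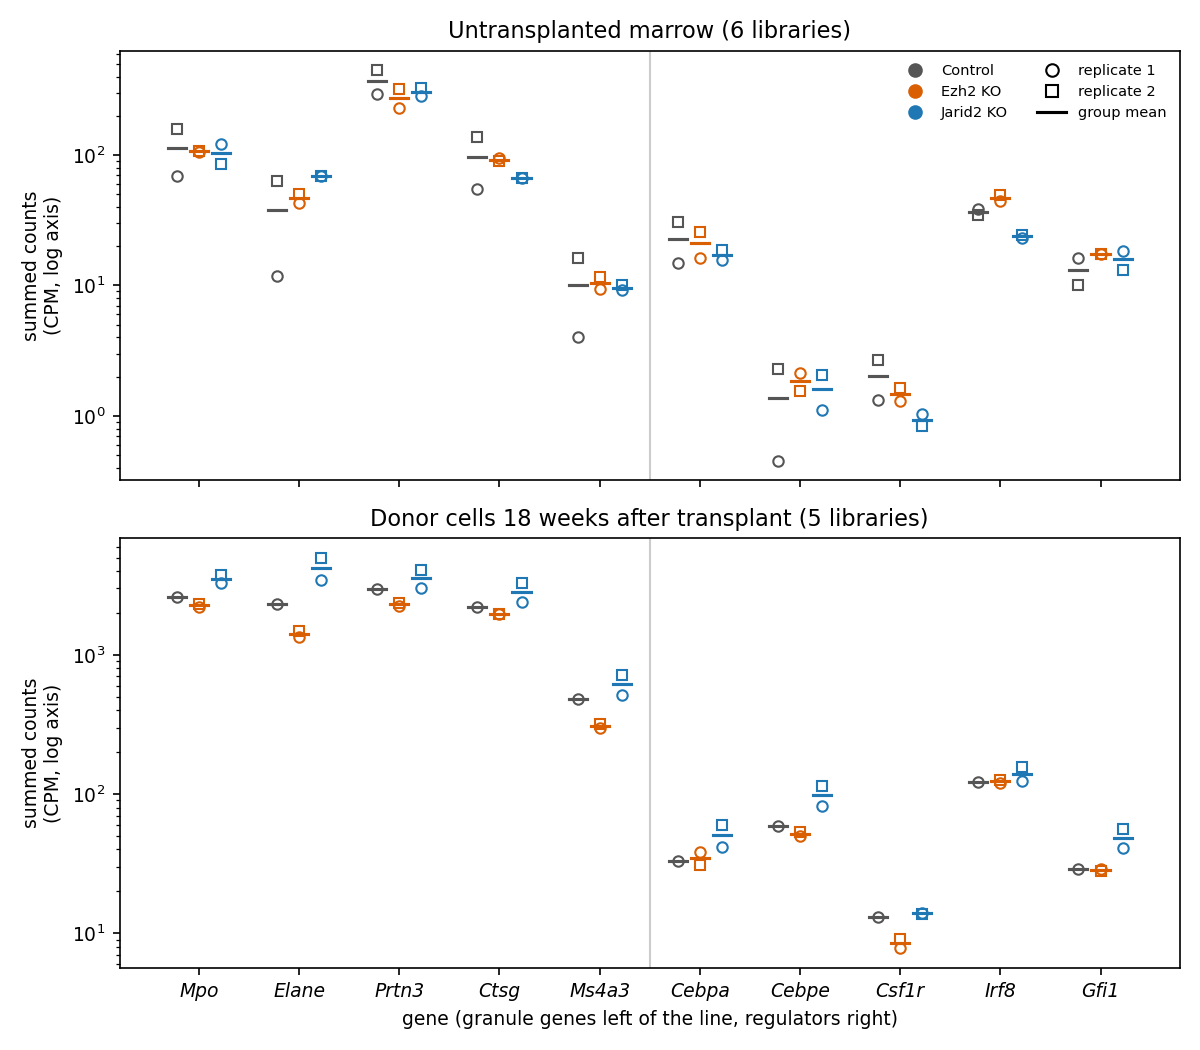
Summed counts of each gene per library, in CPM on a log axis, for the 6 baseline libraries (top) and the 5 transplant libraries (bottom). Points are libraries (circle replicate 1, square replicate 2), bars are group means and colours are genotypes. After transplant the Jarid2 KO points of Elane (3456 and 4982 CPM) sit above all others of that gene.

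With 1 Ezh2 KO library left out, Elane and Ms4a3 kept their size and missed the threshold. Without Ezh2 KO 1 Elane differed by 1.57 (adjusted p = 0.093) and Ms4a3 by 1.01 (0.085), and without Ezh2 KO 2 by 1.63 (0.084) and 1.03 (0.083). Cebpe, Csf1r and Gfi1 passed whichever library was left out. The same 5 genes passed among male cells alone (cells with a Y-linked transcript and no Xist), and 5 passed without cells carrying B-lineage markers. The share of all genes called in these fits is not given. Markers of other cells also moved with genotype. The summed level of the 9 B markers was 46.7 CPM in Control, 588 and 452 in the Ezh2 KO pair and 84.5 and 113 in the Jarid2 KO pair, and that of the 7 macrophage markers was 5.68, then 4.82 and 4.27, then 9.27 and 11.3 CPM. The 11 erythroid markers summed to 296, then 446 and 489, then 251 and 257 CPM, and the 10 dendritic markers to 590, then 522 and 565, then 701 and 918 CPM. The 11 lymphoid markers summed to 482, then 1226 and 1172, then 874 and 1108 CPM. The 14 myeloid markers summed to 4106, then 3856 and 3970, then 4332 and 5133 CPM, in the order of groups of the granule genes. The 10 stem markers summed to 739, then 499 and 542, then 629 and 548 CPM. The part of the macrophage, erythroid, dendritic, lymphoid, myeloid and stem markers in these differences was not tested. With no filter on cells, 6 of the 10 genes were called between the knockouts, the same 5 and Mpo (0.72, adjusted p = 0.0397), and with at most 5% mitochondrial counts and at least 2000 UMIs and 1000 genes per cell (the strict cell filter) 5 were called.

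The transplant Control was 1 library, so its own spread was not measured: SEs and p-values against it take it to vary like the knockout libraries. With that assumption, Csf1r was lower in Ezh2 KO (log2 difference -0.73, SE 0.13, adjusted p = 0.034), and was the 1 gene of the 10 called there, where 4.84% of genes were. This call was lost without Ezh2 KO 1 (-0.66, adjusted p = 0.11), without Ezh2 KO 2 (-0.81, adjusted p = 0.066) and among male cells alone (-0.47, adjusted p = 0.24). Elane (-0.81, adjusted p = 0.128) and Ms4a3 (-0.72, adjusted p = 0.0971) did not pass by edgeR in Ezh2 KO against Control. DESeq2 called both (adjusted p = 0.000387 and 0.000974), and edgeR called both when either Jarid2 KO library was left out of the fit (adjusted p from 0.0104 to 0.0146). No gene of the 10 was called in Jarid2 KO against Control by edgeR, where 0.336% of genes were. Of the 10, 4 had an unadjusted p under 0.05 (Elane 0.79, Cebpe 0.66, Gfi1 0.68 and Cebpa 0.56), against 1314 of the 15758 genes tested. DESeq2 called 3 of the 4. edgeR called Elane, Cebpe and Gfi1 without Jarid2 KO 1 (adjusted p = 0.0422, 0.0344 and 0.0399), and Gfi1 without the count filter (adjusted p = 0.0393). Both comparisons share the single Control library.

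The total of a gene can change through the share of cells that hold it or through the amount in those cells. To separate them, every cell was thinned to 5000 UMIs, and the share of cells with at least 1 UMI and the mean UMIs in those cells were computed. After transplant nearly every cell held an Mpo UMI: the share was 96.8% in Control, 91.4% and 92.2% in Ezh2 KO and 96.1% in both Jarid2 KO libraries. For Elane it was 82.5% in Control, 58.8% and 61.3% in the Ezh2 KO pair and 86.2% and 89.9% in the Jarid2 KO pair. Unthinned, these shares were 98.6%, 88.3% and 84.2%, and 99.2% and 99.6% for Elane, and 98.2% to 99.9% for Mpo.

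Cells with B-lineage markers, not shown here to be free of myeloid transcripts, also held the genes often. Cells with at least 1 UMI of the 9 B markers per 1000 UMIs, counted in the 4 transplant libraries with 30 or more of them (median depths of 9109 to 12597 UMIs), held an Mpo UMI in 68.5% to 92.0% of cases and an Elane UMI in 51.1% to 90.0%. Other cells of those libraries held them in 92.8% to 96.2% and 59.3% to 89.9%. The B-marker cells held Prtn3 in 70.7% to 92.0%, Ctsg in 69.3% to 86.0% and Ms4a3 in 20.4% to 38.2%. The Mpo share of B-marker cells itself ran from 68.5% and 76.3% in Ezh2 KO to 85.3% and 92.0% in Jarid2 KO. The share with a single UMI after transplant may therefore be background for the granule genes. Whether these UMIs were background or the cells' own transcripts was not tested. The Control library held 9 B-marker cells, too few for such a share. For Cebpa, Cebpe, Csf1r and Gfi1 the share was lower in B-marker cells than in other cells of the same library in all 4. The same held for Mpo, Prtn3, Ctsg and Ms4a3. Other cells held Prtn3 in 91.5% to 97.6%, Ctsg in 84.7% to 94.4% and Ms4a3 in 31.1% to 55.9%. Elane was level in Jarid2 KO 2 (90.0% against 89.9%) and lower in B-marker cells of the other libraries. B-marker cells held Cebpa in 0% to 10.0% against 11.8% to 23.5% of other cells, and Cebpe in 3.53% to 14.7% against 11.0% to 23.5%. Gfi1 was held by 4.11% to 11.8% of B-marker cells against 11.8% to 20.2% of other cells, and Csf1r by 0.272% to 4% against 2.83% to 5.55%. The ranges of Cebpe, Csf1r and, barely, Gfi1 thus overlapped between libraries. Irf8 went the other way, at 36% to 47.1% against 24.3% to 28.6%.

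With that limit, the share was higher in Jarid2 KO than in Ezh2 KO for 9 of the 10 genes by limma on the log2 odds, where 8.43% of 11097 genes were called and 3.14% were called higher. The log2 odds differed by 2.31 for Elane (SE 0.28, adjusted p = 2.28e-06), 1.22 for Cebpe (SE 0.17, adjusted p = 1.91e-05), 0.89 for Csf1r (SE 0.16, adjusted p = 0.000501), 0.86 for Cebpa (SE 0.19, adjusted p = 0.00272) and 0.77 for Gfi1 (SE 0.17, adjusted p = 0.00388). Irf8 was the exception, at 25.9% in Control, 25.7% and 26.6% in the Ezh2 KO pair and 25.1% and 28.7% in the Jarid2 KO pair (difference 0.05, SE 0.19, adjusted p = 0.964). Its interval of 2 SE on either side reached from -0.34 to 0.44. In Ezh2 KO against Control 6 genes had lower shares (all 5 granule genes and Csf1r), where 5.15% were called and 1.51% were called lower. In Jarid2 KO against Control limma called 0, where 0.730% of genes were called. There 3 of the 10 had an unadjusted p under 0.05, against 701 of the 11097 genes. These counts depended on the settings and libraries. Without B-marker cells 4 genes were called in Ezh2 KO against Control, with Mpo and Ctsg lost (adjusted p = 0.0729 and 0.073), and 8 between the knockouts, with Mpo lost (adjusted p = 0.0645). When 2 UMIs were required, 0 and 3 were called. With single libraries left out, the count in Ezh2 KO against Control was 1 without Ezh2 KO 1, 2 without Ezh2 KO 2 and 7 without either Jarid2 KO library. Between the knockouts it was 3 without Ezh2 KO 1, 5 without Ezh2 KO 2 and 9 without any other library.

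The amount in cells with a UMI passed the test for none of the 10 genes after transplant: limma called 0 in each of the 3 comparisons, where 0.0816%, 0.0363% and 0.172% of 11030 genes were called for Ezh2 KO minus Control, Jarid2 KO minus Control and the difference between the knockouts. Unadjusted, 0, 0 and 3 of the 10 had a p under 0.05, against 819, 597 and 861 of the 11030 genes. Elane had the widest gap, with a mean of 11.0 UMIs per such cell in Control, 8.03 and 8.40 in the Ezh2 KO pair and 16.4 and 22.4 in the Jarid2 KO pair (difference 1.22 on the log2 scale, SE 0.29, adjusted p = 0.23). Mpo had 11.4 UMIs in Control, 9.31 and 10.0 in the Ezh2 KO pair and 14.6 and 16.7 in the Jarid2 KO pair. Of the regulators, Cebpa, Csf1r and Gfi1 stayed near 1 UMI per such cell, at 1.12 to 1.23 for Cebpa, 1.08 to 1.11 for Csf1r and 1.14 to 1.25 for Gfi1. Cebpe stood at 1.58 to 2.01 and Irf8 at 2.00 to 2.55, both highest in Jarid2 KO 2.

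The split of the Jarid2 KO minus Ezh2 KO difference is given as a description only, since it follows how abundant a gene is. Of the log2 change in mean UMIs over all cells, the share of cells carried 8.72% for Mpo, 11.7% for Prtn3, 19.9% for Ctsg and 31.1% for Elane. It carried 62.9% for Ms4a3, 90.9% for Cebpe, 91.3% for Gfi1, 97.3% for Cebpa and 100% for Csf1r. A mean over cells with a UMI cannot fall under 1, and a share cannot exceed 100%. So a gene held by most cells can change mainly in amount, and one held by few at near 1 UMI mainly in share, and the split does not show how a gene changed.

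**Figure D2:**
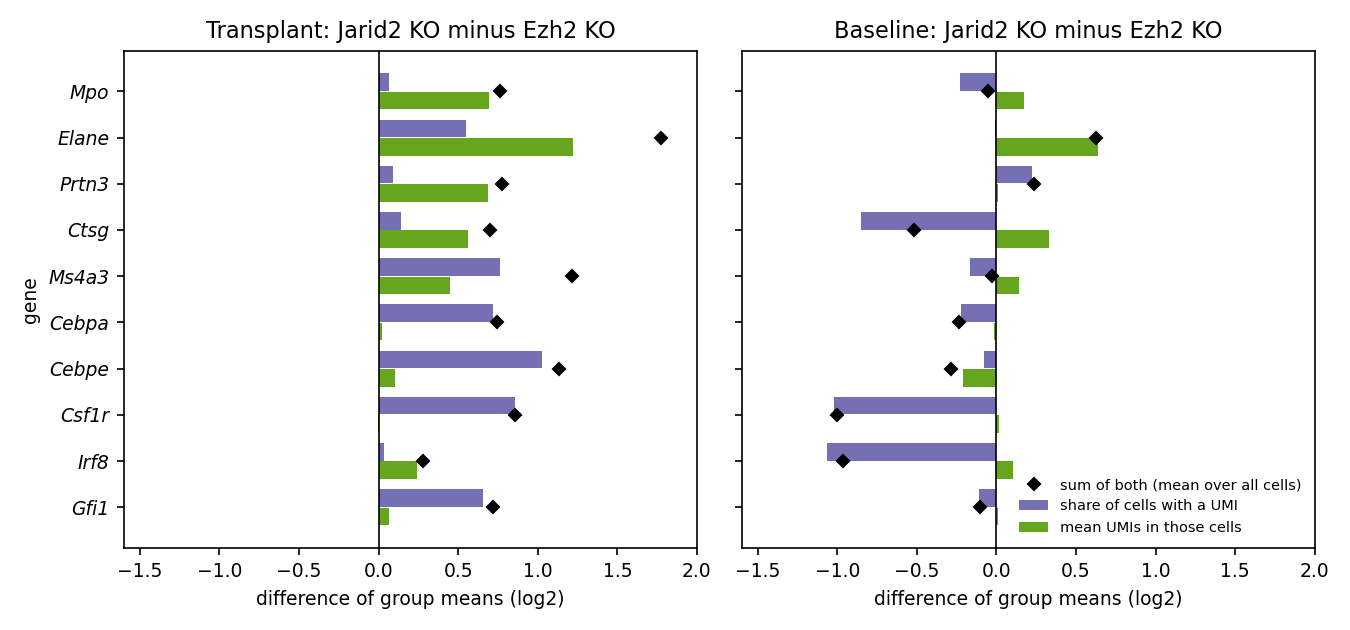
Difference between Jarid2 KO and Ezh2 KO in group means on the log2 scale (horizontal axis), split for each gene into the share of cells with a UMI (upper bar) and the mean UMIs in those cells (lower bar), with their sum as a diamond. After transplant the Elane diamond lies at 1.77, of which 1.22 is amount, while the Csf1r diamond at 0.85 is all share.

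A higher threshold was then used, which few B-marker cells reached. Cells with at least 10 UMIs of a gene, of 5000, made up 0% to 4.0% of B-marker cells for each of the 5 granule genes. Of all transplanted cells, 17.5% passed for Elane in Control, 10.5% and 10.9% in the Ezh2 KO pair and 26.5% and 30.2% in the Jarid2 KO pair. For Mpo it was 33.5%, then 23.3% and 24.0%, then 39.9% and 41.5%. For Prtn3 it was 33.5%, then 20.9% and 21.9%, then 37.0% and 43.7%, and for Ctsg 29.8%, then 21.6% and 22.5%, then 35.6% and 41.2%. Ms4a3 passed in 5.44% of Control cells, in 3.1% of cells in both Ezh2 KO libraries and in 6.15% and 12.0% in Jarid2 KO. For all 5 genes the 2 Jarid2 KO libraries lay above the Control library and the Control above the 2 Ezh2 KO libraries. How many other genes had this order at this threshold was not counted.

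The amount in those cells differed less. For Ctsg it was 23.0 UMIs per cell in Control, 25.5 and 24.7 in the Ezh2 KO pair and 23.0 and 28.8 in the Jarid2 KO pair, and the groups overlapped. Elane did not overlap, with 42.7 UMIs in Control, 36.5 and 38.3 in the Ezh2 KO pair and 47.3 and 61.01 in the Jarid2 KO pair. Only 192 genes could be tested at this threshold, which was chosen after seeing the data, and limma called none of the 5. The Elane share differed by 1.72 in log2 odds (SE 0.41, unadjusted p = 0.0133, adjusted p = 0.427) and its amount by 0.52 (SE 0.18, unadjusted p = 0.0332, adjusted p = 0.991). Of the genes tested, 0.521%, 0% and 0.521% were called in share for Ezh2 KO minus Control, Jarid2 KO minus Control and the difference between the knockouts, and 0% of 180 genes in amount in all 3. Unadjusted, 3 of the 5 had a p under 0.05 in share and 1 of the 5 in amount for Jarid2 KO minus Ezh2 KO. Among all genes tested these numbers were 11 of 192 and 1 of 180.

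**Figure D3:**
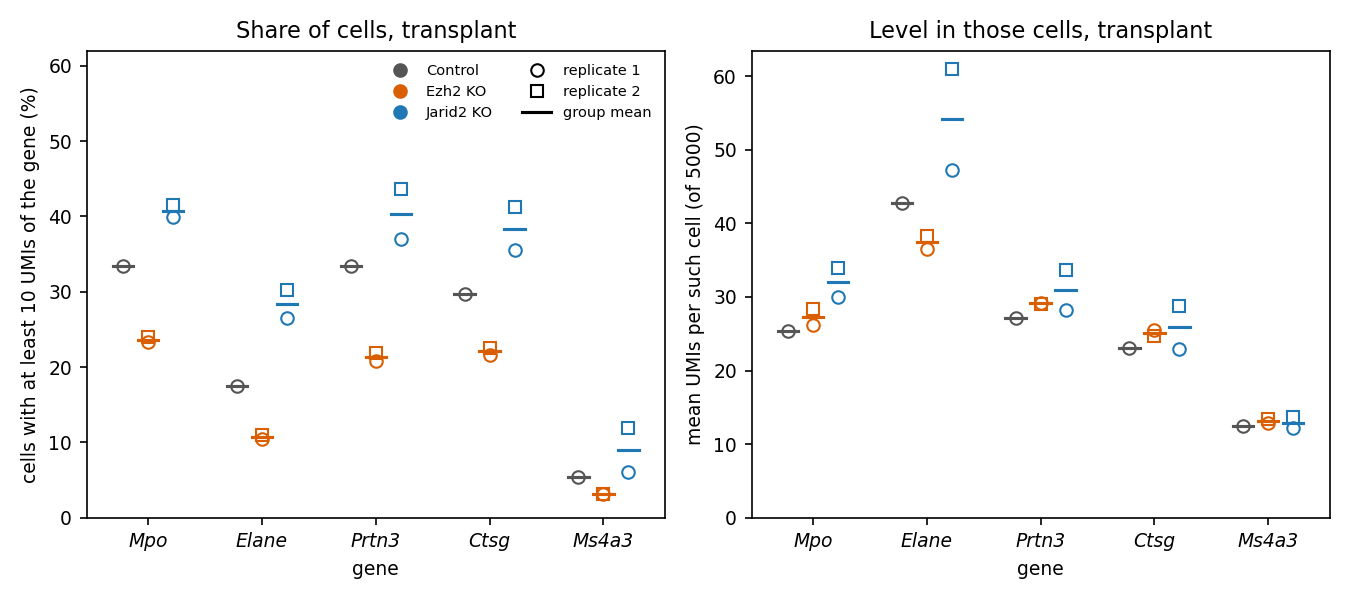
Share of transplanted cells with at least 10 UMIs of each granule gene after thinning to 5000 UMIs (left, percent) and mean UMIs in those cells (right), per library, with bars at group means. On the left both Jarid2 KO points of Elane (26.5% and 30.2%) lie above the Control (17.5%) and the Ezh2 KO points (10.5% and 10.9%).

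Cells also differed in how many granule genes they held at once. At 5000 UMIs all 5 granule genes were found together in 42.6% of Control cells, 19.9% and 22.2% of Ezh2 KO cells and 44.2% and 49.7% of Jarid2 KO cells after transplant. These shares include any background of the kind described above. At baseline all 5 were found in 0.141% to 0.832% of cells, and none of the 5 in 22.5% to 45.2%. Exact (Clopper-Pearson) intervals on such shares cover counting error only.

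The genotype difference was then examined inside single classes. The Control cells of each experiment were clustered without the 10 genes. Each knockout cell took the most common class among its 15 nearest Control cells. The transplant classes thus came from 1 Control library, and knockout cells unlike any Control cell were still placed in 1 of them. A myeloid-like class was named from other markers. After transplant it was the cluster led by Wfdc21, Sgms2 and S100a8 beside Elane and Ms4a3, with 185 to 316 cells per library. Elane stood there at 9098 CPM in Control, 6341 and 7140 in the Ezh2 KO pair and 10207 and 12949 in the Jarid2 KO pair, the same order without overlap (Jarid2 KO minus Ezh2 KO 0.77, SE 0.21, adjusted p = 0.129). Mpo stood at 5983 CPM in Control, 6375 and 6745 in the Ezh2 KO pair and 6818 and 7367 in the Jarid2 KO pair (difference 0.11, SE 0.20, adjusted p = 0.859). Ctsg (-0.01) and Prtn3 (-0.06) had differences near 0, with intervals of 2 SE on either side from -0.42 to 0.39 and from -0.46 to 0.35. edgeR called 0 of the 10 in this class in any of the 3 comparisons, where 0.325%, 0% and 2.10% of 11392 genes were called. Unadjusted, 1, 0 and 2 of the 10 had a p under 0.05, against 961, 533 and 1660 of all genes. The tests in the myeloid-like class do not cover cluster 6, described below. That cluster met the marker rule for the myeloid name (median log2 fold of 1.16, against 0.989 in the tested cluster). It was left unnamed, and not tested, because more markers of another list than of its own were among its top 10 genes. Elane stood there at 9486 CPM in Control, 7571 and 8078 in the Ezh2 KO pair and 11156 and 14983 in the Jarid2 KO pair, without overlap, whereas Ctsg (6181, then 6997 and 6770, then 5624 and 7438 CPM) and Prtn3 (8531, then 8511 and 8645, then 7572 and 9769 CPM) overlapped.

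At baseline edgeR called no granule gene in total, and DESeq2 called Prtn3 lower in Ezh2 KO than in Control (-0.38, adjusted p = 0.00206). Control libraries differed most among themselves: Elane stood at 11.8 CPM in the male and 63.4 in the female Control, 43.0 and 50.0 in the Ezh2 KO pair and 68.9 and 69.4 in the Jarid2 KO pair. Mpo stood at 69.2 and 158 CPM in Control, 106 and 107 in the Ezh2 KO pair and 122 and 85.2 in the Jarid2 KO pair, so both knockouts lay inside the Control range. Ctsg stood at 55.2 and 138, 94.7 and 89.7, and 66.4 in both Jarid2 KO libraries. Ms4a3 stood at 4.04 and 16.3, 9.40 and 11.6, and 9.20 and 10.1 CPM, again with both knockouts inside the Control range. Prtn3 was the granule gene of widest reach, at 296 and 447 CPM in Control, 229 and 323 in the Ezh2 KO pair and 282 and 326 in the Jarid2 KO pair, with overlap between all groups, although it was lower in Ezh2 KO than in the Control of the same sex in both sexes.

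Of the regulators at baseline, Cebpa stood at 15.002 and 30.6 CPM in Control, 16.2 and 25.9 in the Ezh2 KO pair and 15.6 and 18.9 in the Jarid2 KO pair, higher in the female library of each pair. Gfi1 stood at 16.2 and 10.1, 17.4 and 17.3, and 18.5 and 13.2 CPM. Cebpe and Csf1r were rare, at 0.453 to 2.28 and 0.830 to 2.68 CPM. Csf1r was lowest in Jarid2 KO, at 1.03 and 0.830 CPM against 1.33 and 2.68 in Control and 1.31 and 1.63 in Ezh2 KO (Jarid2 KO minus Control -1.04, SE 0.33, adjusted p = 0.358). Its baseline groups did not overlap in Jarid2 KO against either other genotype, but none of these differences passed the test.

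In shares of cells at baseline, Prtn3 fell in Ezh2 KO. It was held by 65.8% and 74.1% of Control cells, 48.4% and 61.6% of Ezh2 KO cells and 62.1% and 65.7% of Jarid2 KO cells (79.2% and 84.7%, 62.3% and 72.6%, and 77.8% and 79.4% unthinned). Both Ezh2 KO libraries lay below every other library, and the log2 odds differed from Control by -0.94 (SE 0.12, adjusted p = 0.0135). This call was lost without the replicate number as a block. B-marker cells held Prtn3 in 1.22% to 5.08% and other cells in 59.7% to 75.8%, so the baseline share stood far above that of B-marker cells. B-marker cells were 22.8% and 13.0% of the Ezh2 KO libraries against 8.05% and 3.12% of Control. Without them the Ezh2 KO difference was -0.62 (SE 0.08, adjusted p = 0.0114), Prtn3 was also lower in Jarid2 KO than in Control (-0.47, adjusted p = 0.0446), and the knockouts did not differ by the test (0.14, adjusted p = 0.384; 0.53, adjusted p = 0.0426 with all cells). Without Control 2 the Ezh2 KO difference was -0.90 (adjusted p = 0.054). Ctsg, held by 5.88% and 9.71% of Control, 6.38% and 6.14% of the Ezh2 KO and 3.70% and 3.26% of the Jarid2 KO cells, was lower in Jarid2 KO than in Ezh2 KO (-0.89, SE 0.21, adjusted p = 0.0499). Without B-marker cells Ctsg was also called against Control (-1.21, SE 0.20, adjusted p = 0.0446).

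Elane at baseline was held by few cells, and neither its share nor its amount passed the test. It was found in 0.674% and 2.25% of Control, 1.00% and 1.04% of the Ezh2 KO and 0.884% and 1.15% of the Jarid2 KO cells. B-marker cells (median depths of 8859 to 13829 UMIs) held it in 0.407% to 1.13%, so the share in 4 of the 6 libraries lay within the range of B-marker cells. Cells with a UMI held on average 4.47 and 7.14 UMIs in Control, 10.9 and 13.0 in the Ezh2 KO pair and 19.8 and 17.3 in the Jarid2 KO pair. The 3 groups did not overlap, and the difference from Control was 1.72 in Jarid2 KO (SE 0.19, unadjusted p = 9.29e-05, adjusted p = 0.113) and 1.08 in Ezh2 KO (SE 0.19, adjusted p = 0.125). limma called 0 of the 8 genes measured in amount, where 0.148%, 0.0328% and 0.493% of 12181 genes were called in the 3 comparisons. Unadjusted, 3, 4 and 1 of the 8 had a p under 0.05, against 1302, 940 and 1474 of all genes. In the baseline myeloid-like class (917 to 1240 cells per library, led by the S-phase genes Ung, E2f1 and Hells beside Ctsg and Mpo) Elane stood at 40.4 and 192 CPM in Control, 222 and 196 in the Ezh2 KO pair and 245 and 282 in the Jarid2 KO pair. In that class 4, 3 and 1 of the 10 had an unadjusted p under 0.05, against 2209, 1917 and 2337 of 14280 genes. edgeR called 0 of the 10 there, where 1.47%, 0.770% and 1.34% of genes were called. That 0 held in no fit with 1 library left out. The share of all genes called in those fits is not given, so this is not a result about the 10 genes.

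Irf8 was the gene of the 10 whose total differed between genotypes at baseline. It stood at 38.4 and 35.0 CPM in Control, 44.5 and 49.3 in the Ezh2 KO pair and 23.1 and 24.4 in the Jarid2 KO pair, and no group overlapped another. It was higher in Ezh2 KO than in Control (0.40, SE 0.07, adjusted p = 0.0497; 1 of the 10 called, where 3.47% of 18177 genes were) and lower in Jarid2 KO than in Ezh2 KO (-1.0, SE 0.07, adjusted p = 0.012; 1 of the 10, where 5.91% were). The Ezh2 KO call was lost among genes of at least 10 CPM (adjusted p = 0.0517), with the strict cell filter (0.0502) and without the replicate number (sex) as a block (0.113), at a difference of 0.39 to 0.40 each time. The difference between Jarid2 KO and Control was -0.61 (SE 0.07, adjusted p = 0.108). edgeR called 0 of the 10 there, where 0.0330% of genes were called, and DESeq2 called 1. Unadjusted, 3 of the 10 had a p under 0.05, against 2095 of the 18177 genes.

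The share of cells with an Irf8 UMI was 9.34% and 9.27% in Control, 13.6% and 11.7% in the Ezh2 KO pair and 6.16% and 5.92% in the Jarid2 KO pair (17.5% and 17.3%, 26.7% and 21.8%, and 12.3% and 11.8% unthinned). It was higher in Ezh2 KO than in Control (log2 odds 0.49, SE 0.08, adjusted p = 0.0237), lower in Jarid2 KO than in Control (-0.67, SE 0.08, adjusted p = 0.0491) and lower in Jarid2 KO than in Ezh2 KO (-1.17, SE 0.08, adjusted p = 0.00197). With Prtn3 and Ctsg these made 2, 1 and 3 called genes of the 8 measured, where 8.13%, 0.246% and 8.45% of 12195 genes were called. Both Irf8 calls against Control were lost without the replicate number as a block. When 2 UMIs were required, the call in Jarid2 KO against Control was lost, and fewer genes were called in Ezh2 KO against Control. The mean in cells with an Irf8 UMI was 1.55 to 2.11 and overlapped between all groups.

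Irf8 is itself a gene of B-lineage cells, and those cells differed between genotypes. B-marker cells held an Irf8 UMI in 24.9% to 39.6% of cases, against 5.09% to 8.66% of other cells. They made up 8.05% and 3.12% of Control, 22.8% and 13.0% of Ezh2 KO and 4.05% and 4.85% of Jarid2 KO libraries, and the 9 B markers summed to 1108 and 342, 3130 and 1717, and 496 and 492 CPM. Without B-marker cells the share was 7.64% and 8.66% in Control, 7.28% and 8.49% in the Ezh2 KO pair and 5.26% and 5.09% in the Jarid2 KO pair. The Ezh2 KO difference from Control was then -0.052 (SE 0.09, adjusted p = 0.808), reversed in sign, while Jarid2 KO stayed lower than Control (-0.70, SE 0.09, adjusted p = 0.0204) and than Ezh2 KO (-0.65, SE 0.09, adjusted p = 0.0141). Other markers also moved with Jarid2 KO at baseline. The 10 T or innate lymphoid markers summed to 39.6 and 32.0 CPM in Control, 44.5 and 44.4 for Ezh2 KO and 79.9 and 79.2 for Jarid2 KO. In the same order the 7 macrophage markers summed to 4.08 and 6.92, 5.14 and 7.39, and 1.83 and 2.42 CPM. The 14 myeloid markers summed to 1257 and 1394, 1362 and 1621, and 1043 and 1020 CPM. The 10 stem markers summed to 2561 and 2500, 2025 and 2303, and 2847 and 2760 CPM. The part of these marker lists in the Irf8 difference was not tested. In summed counts without B-marker cells no Irf8 difference passed, at 0.04, -0.63 and -0.67 (adjusted p = 0.898, 0.151 and 0.076). Single libraries also mattered: the Irf8 total in Ezh2 KO lost its call without Control 2 or any of the 4 knockout libraries (adjusted p from 0.069 to 0.14), and that in Jarid2 KO against Ezh2 KO lost it without Jarid2 KO 1 (-0.96, adjusted p = 0.06). The share in Ezh2 KO against Control lost its call without Control 1, Control 2 or Ezh2 KO 1 (adjusted p = 0.16, 0.071 and 0.075), the share in Jarid2 KO against Control lost it without any 1 of the 4 libraries compared (adjusted p from 0.11 to 0.19), and the share in Jarid2 KO against Ezh2 KO kept it in every such test.

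**Figure D4:**
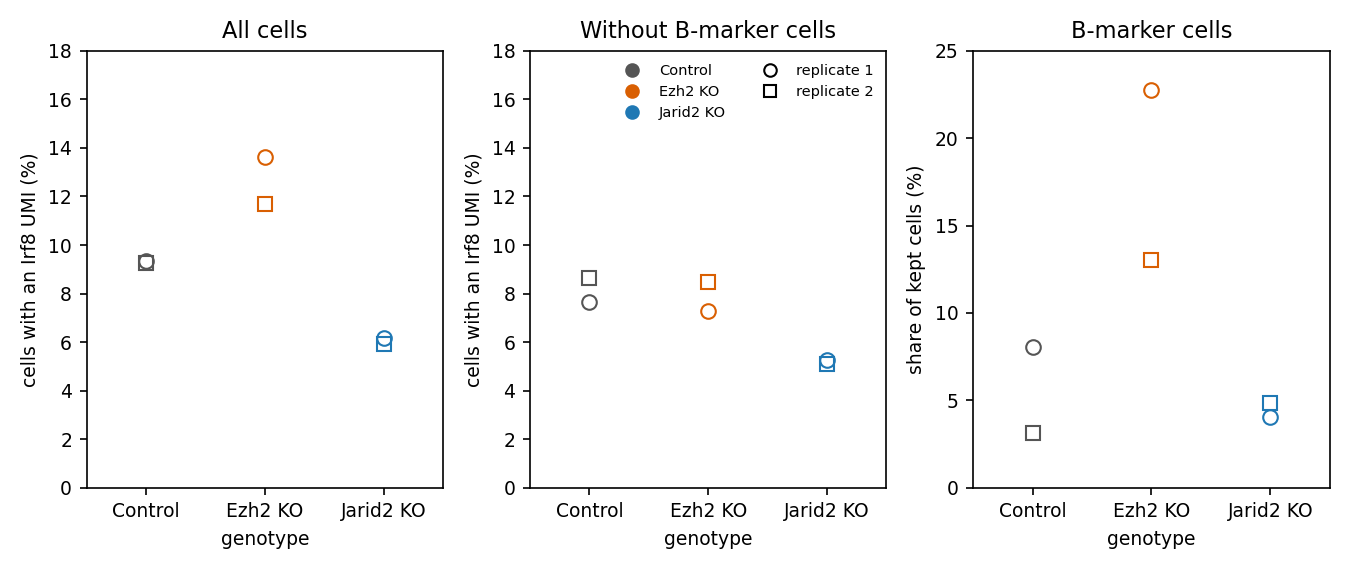
Share of baseline cells with an Irf8 UMI at 5000 UMIs in all cells (left) and without B-marker cells (middle), and the share of kept cells that are B-marker cells (right), in percent, per library (circle replicate 1, male; square replicate 2, female). The Ezh2 KO points stand above Control on the left (13.6% and 11.7% against 9.34% and 9.27%) and overlap the Control points in the middle, while Jarid2 KO stays lowest in both.

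Whether a knockout difference itself differed between the experiments was tested with an interaction term over all 11 libraries, although the 2 experiments were counted by different software versions. Irf8 was the 1 gene called by edgeR: its Jarid2 KO minus Ezh2 KO difference was higher by 1.22 after transplant than at baseline (SE 0.11, adjusted p = 0.00245, where 2.46% of 18938 genes were called). DESeq2 called 3, adding Csf1r (1.47, adjusted p = 0.00834) and Gfi1 (0.97, adjusted p = 0.0277), and edgeR called Csf1r when either baseline Control was left out (adjusted p = 0.0176 and 0.0177). Without B-marker cells the Irf8 value was 0.91 (SE 0.20, adjusted p = 0.0535). For Ezh2 KO minus Control edgeR called 0 of the 10, where 0.349% were called, 1 of the 10 had an unadjusted p under 0.05 and DESeq2 called 0. For Jarid2 KO minus Control it called 0, where 0% were called, with 2 of the 10 under 0.05 unadjusted and 1 called by DESeq2. Over all genes 1720 and 965 of 18938 had an unadjusted p under 0.05 in these 2 comparisons. No granule gene passed this test, so a difference between the experiments in their genotype effects was not shown for them.

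Surface antibodies placed the genes on the baseline hierarchy. Gates were set within each library from CD150, CD48 and CD135: a stem gate (CD150 in the top 20%, CD48 and CD135 below the median), MPP2 (CD150 in the top 20%, CD48 at or above and CD135 below the median), MPP3 (CD150 not in the top 20%, CD48 at or above and CD135 below the median) and MPP4 (CD150 not in the top 20%, CD135 at or above the median). Mpo averaged 18.0 CPM in the stem gate, 84.2 in MPP2, 264 in MPP3 and 98.9 in MPP4, and was higher in MPP3 than in the stem gate in 6 of 6 libraries (log2 difference 4.16, SD 1.27). Ctsg was also higher there in all 6 (4.08, SD 1.58), as were Elane (3.47, SD 1.76), Ms4a3 (2.21, SD 0.83) and Cebpe (1.73, SD 0.74). Averaged over the libraries, these granule genes and Cebpe were highest in MPP3, which was not tested against MPP2 or MPP4.

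Other regulators were as high or higher in MPP4, the gate of lymphoid-primed progenitors. Cebpa averaged 3.70, 8.74, 21.8 and 27.9 CPM over stem, MPP2, MPP3 and MPP4, Gfi1 5.29, 4.07, 13.4 and 20.0, and Csf1r 0.367, 0.455, 1.09 and 2.26. Irf8 averaged 4.80, 25.2, 45.8 and 48.6 CPM. Prtn3 was spread most evenly, at 264, 158, 393 and 321 CPM, and differed by 0.54 (SD 0.37) between MPP3 and the stem gate. By exact two-sided paired permutation over the 6 libraries the smallest possible p is 0.03125, reached by 18 of the 30 gene and gate pairs, and it became 0.0521 after adjustment over the 30. Whether any pair passed thus depended on how many pairs tied at this smallest p. With centred antibody values 0 pairs passed, and 21 of the 30 passed with raw antibody counts. These counts do not measure a difference in evidence.

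In the stem gate 4 of the 5 granule genes were lower in both Control libraries than in any knockout library. Elane stood there at 0.868 and 1.42 CPM in Control, 26.3 and 40.6 in the Ezh2 KO pair and 46.5 and 19.3 in the Jarid2 KO pair, from 12 and 21, 443 and 677, and 697 and 286 UMIs. The share of stem-gate cells with an Elane UMI was alike, at 0.778% and 0.741%, 0.733% and 0.441%, and 0.570% and 0.550%. Mpo stood at 3.83 and 5.15 CPM in Control, 40.0 and 20.1 in the Ezh2 KO pair and 28.8 and 9.99 in the Jarid2 KO pair, and Ctsg at 2.60 and 2.17, 42.5 and 23.9, and 23.2 and 13.8. Ms4a3 stood at 2.68 and 3.05, 9.80 and 9.17, and 5.27 and 4.79 CPM. Prtn3 was nearly level, from 226 to 290 CPM over the 6 libraries. These values rested on few cells and on the gate. With raw antibody counts in place of centred values, Elane in the stem gate stood at 0.899 and 1.49 CPM in Control, 0.905 and 35.8 in the Ezh2 KO pair and 0.468 and 0.848 in the Jarid2 KO pair, so the groups overlapped. With CD150 in the top 10% it stood at 0.510 and 1.77, 0.613 and 0.608, and 35.0 and 33.8 CPM, so Ezh2 KO was no longer above Control. The comparison was picked after the values were seen, was not counted over other genes and was not tested.

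**Figure D5:**
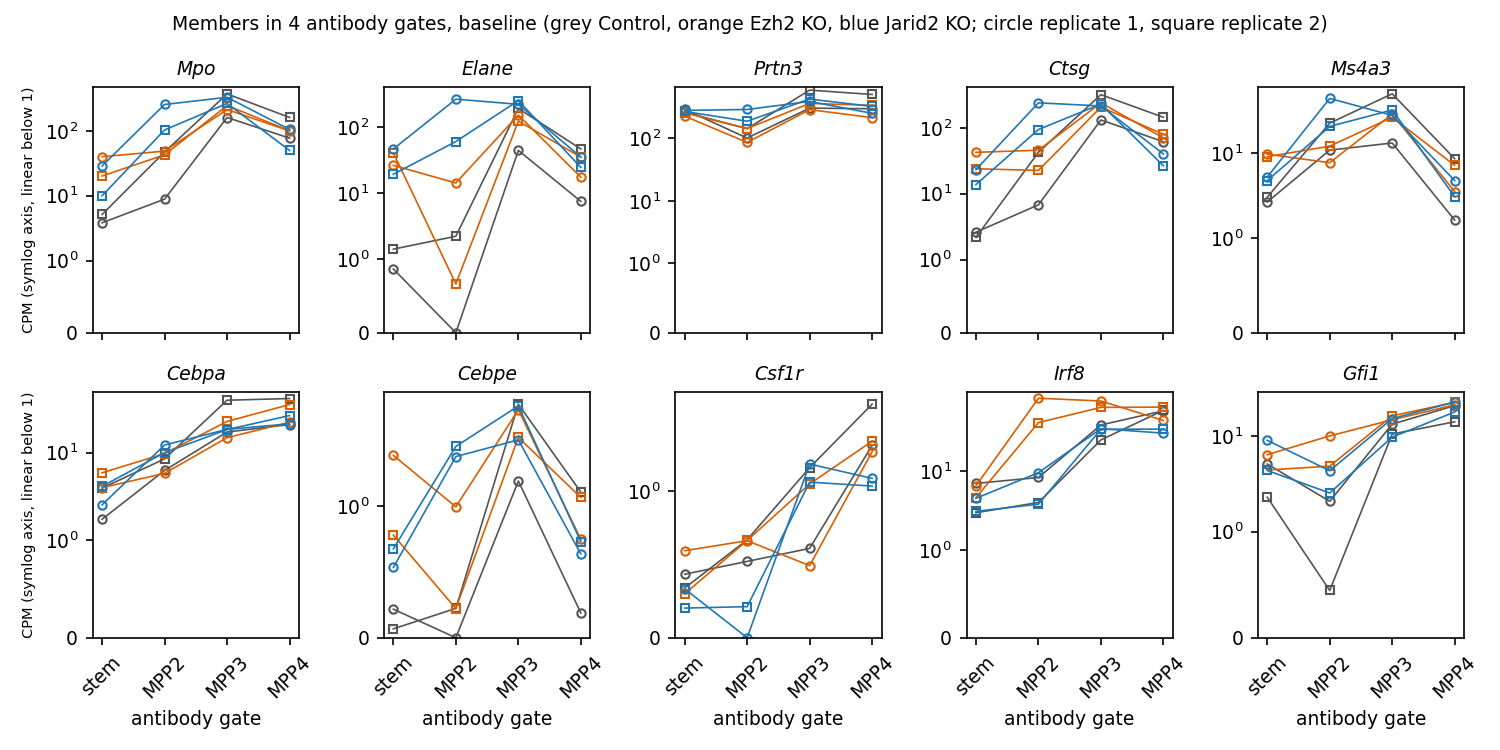
CPM of each gene in 4 antibody gates of the 6 baseline libraries (lines join the gates of 1 library; the vertical axis is logarithmic above 1 and linear below). Mpo, Elane, Ctsg and Ms4a3 are highest or near it in MPP3, Cebpa, Csf1r and Gfi1 rise into MPP4, and Prtn3 stays between 158 and 393 CPM on average.

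Ranked by single antibodies, the granule genes followed CD48 and Sca1. The ranks used values centred over the 6 antibodies of each cell. A value for 1 antibody is thus relative to the others, and trends over different antibodies are not independent. Ranks from raw antibody counts were not made. Between the top 20% and the bottom 20% of cells by CD48, Ctsg differed by 6.55 on the log2 scale, Mpo by 6.21, Elane by 5.76, Irf8 by 4.07 and Ms4a3 by 3.40, each higher in 6 of 6 libraries. By Sca1 they ran the other way, at -5.77 for Elane, -5.64 for Ctsg, -5.26 for Mpo and -4.07 for Ms4a3, each lower in 6 of 6, while Gfi1 was higher with Sca1 in 6 of 6 (0.72). Over CD117 (c-Kit) Elane and Irf8 went in opposite directions, at 3.88 and -3.39, each in 6 of 6 libraries. Irf8 (2.18), Cebpa (2.11) and Csf1r (1.69) rose with CD135, and Ms4a3 fell (-1.65), also in 6 of 6. Prtn3 differed by 0.17 over CD48, higher in 4 of 6. Since c-Kit and Sca1 set the sort gate, these ranges span only the gated range. The gates and these ranks used all kept cells, B-marker cells included, and the part of those cells in the Irf8 values was not tested.

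Across clusters the granule genes and Cebpe shared their highest clusters. After transplant these were cluster 6, unnamed and led by Wfdc21, Ncam1 and Elane, and the myeloid-like cluster 8. Elane averaged 10255 and 9147 CPM in them, Mpo 7625 and 6658, and Cebpe 281 and 187. Csf1r was highest in cluster 5 (37.7 CPM), led by F13a1, Csf1r, Ly86 and Nrp1. Irf8 was highest in 2 unnamed clusters, at 1122 CPM in transplant cluster 11 (led by Cd74, Plbd1 and H2-Eb1) and 1246 CPM in baseline cluster 14 (led by Plbd1, Cxcl9 and Xcr1), which raised 7 of 10 T or innate lymphoid and 5 of 10 dendritic markers. At baseline Mpo (291 CPM), Elane (196), Ctsg (251), Ms4a3 (32.1), Prtn3 (533) and Cebpe (6.23) were all highest in the myeloid-like cluster 1, whereas Gfi1 was highest in cluster 15, like T or innate lymphoid cells (48.2 CPM), and Cebpa in lymphoid-like cluster 2 (41.8 CPM).

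Detection in the same cells was compared next. At baseline 41.7% to 66.7% of cells with a Cebpe UMI (12 to 32 cells per library) held 3 or more granule genes, against 1.75% to 6.55% of cells without one. For Gfi1 the values were 1.98% to 8% with and 1.88% to 6.74% without. Over clusters of Control cells, the profile of Cebpe was the regulator profile most like the mean of the granule genes in both experiments (Pearson r = 0.775 over 18 baseline clusters and 0.968 over 12 transplant clusters). Csf1r had 0.640 and 0.378, Cebpa 0.689 and 0.542, Gfi1 -0.052 and 0.897, and Irf8 -0.040 and -0.27. Over the 30 clusters of both experiments together, where differences between the experiments add to r, Csf1r had 0.874. Among 8884 other genes of at least 10 CPM the most alike were Anxa3 (0.963), 1700020L24Rik (0.948), Trem3 (0.939), Hp (0.939) and Rab44 (0.928) over those 30 clusters. Within the experiments they had 0.530 to 0.816 at baseline and 0.691 to 0.981 after transplant. These are descriptions over clusters that share libraries and depth.

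Further genes of the pathway were taken from lists chosen with earlier results of these data known. After transplant 7 of 15 early granule genes were higher in Jarid2 KO than in Ezh2 KO and none lower (median 0.52 over the list and 0.003 over all genes, with 4.37% called higher). Fcnb, a ficolin of neutrophil granules, differed by 2.09 (Ezh2 KO 0.744 and 0.806 CPM, Jarid2 KO 3.27 and 3.20 CPM), the myeloid hexokinase Hk3 by 1.06, the receptor Clec12a by 1.04 and Igsf6 by 0.94. Of 9 late granule genes tested 2 were higher, Mmp8 (collagenase, 1.44) and Lcn2 (lipocalin, 0.49), with a median of 0.24. Of 20 regulators and receptors 8 were higher (median 0.44), led by Ly6c2 (1.19), Fcgr3 (0.89), Cebpd (0.89) and Ccr2 (0.73). In Ezh2 KO against the 1 Control library, with the spread taken from the knockout pairs, 2 early granule genes (Fcnb -1.09, Hk3 -0.88), 1 late gene (Lcn2 -0.81) and 6 regulators and receptors (among them Ly6c2 -0.84, Ccr2 -0.81, Csf2rb -0.73 and Csf3r -0.65) were lower and none higher, where 1.44% of genes were called lower. No gene of the 3 lists was called in Jarid2 KO against Control by edgeR.

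At baseline the late granule list had a median of 0.73 in Ezh2 KO against Control and -0.54 in Jarid2 KO against Ezh2 KO over the 6 genes tested. The medians of the other lists lay between -0.099 and -0.016. No gene of the late list exceeded 4.85 CPM in any baseline library, so these medians rest on low counts. In Ezh2 KO against Control 2 of 15 early granule genes, 2 of 6 late granule genes and 0 of 20 regulators and receptors were called by edgeR, where 3.47% of all genes were. In Jarid2 KO against Ezh2 KO these counts were 2, 0 and 2, where 5.91% were. Fcnb was called higher in Ezh2 KO than in Control, from 0 and 0.0102 CPM in Control to 0.142 and 0.219 in Ezh2 KO, too few counts for a fold. Hk3 was lower (-0.63), and the neutrophil calcium-binding genes S100a8 (1.75) and S100a9 (1.06) were higher among 6 late genes tested. In Jarid2 KO against Ezh2 KO Plac8 (-0.73), Cst7 (-0.68) and Klf4 (-1.16) were lower and Ly6c2 (0.88) higher. The interaction for that comparison was called higher in 4 of the 15 early granule genes, where 2.46% of genes were called in either direction, among them Clec12a (1.43), Hk3 (1.12) and Prss57 (0.89).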

How the data were processed

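The deposited matrices hold whole-number UMI counts per gene and cell barcode, made by the authors with Cell Ranger 7.2.0 (baseline) and 6.1.2 (transplant), per the file headers. The submitters' processing notes name Cell Ranger 3.1.0, Seurat 3.0, Partek, mm10 and mm39. Cells with at least 1000 UMIs, at least 500 genes and at most 10% mitochondrial counts were kept, and doublets were removed at 0.8% per 1000 barcodes. Kept cells held 83921210 to 126527222 UMIs per baseline library and 67629053 to 111514122 per transplant library. The 273 to 721 cells per library under 5000 UMIs were left out of the thinned shares, whose exact 95% intervals had half-widths of at most 1.62 percentage points and cover counting error only. After transplant 85.8% of kept cells reached 5000 UMIs in Control, 95.6% and 93.4% in the Ezh2 KO pair and 86.0% and 93.0% in the Jarid2 KO pair. The thinned shares there compare unequally selected cells.

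Summed counts per library were tested with edgeR 4.0.16 (quasi-likelihood, TMM). Shares (log2 odds, prior 0.5) and mean UMIs in cells with a UMI (log2) were tested with limma 3.58.1, over genes held by at least 1% of cells. All p-values were adjusted over all genes tested by Benjamini-Hochberg, with a threshold of 0.05. Baseline fits carried the replicate number as a block, since it marks sex in the labels. Deviations of same-numbered baseline libraries correlated at 0.304, 0.369 and 0.265. CLR-centred antibody counts set the gates. Clusters (scanpy 1.11.5, Leiden resolution 0.8) were built from Control cells without the 10 genes, and knockout cells were assigned to them by nearest Control cells. DESeq2 1.42.0, other filters, thinning depths and left-out libraries were alternatives, and those on B-marker cells, male cells and the threshold of 10 UMIs were chosen after seeing the data. The scripts were tested on simulated data. The 10 genes and the lists were chosen with earlier results of these data known. The genes named in the text are the 10, the called genes of the lists and the 5 genes most alike. Levels were not compared between the experiments, except that the 5 genes most alike were ranked over clusters of both, and likeness within each experiment was added after seeing the data.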

Additional observations from a re-analysis of the deposited data

Results flagged for a closer look

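The Irf8 difference between Jarid2 KO and Ezh2 KO differed between the experiments by 1.22 on the log2 scale (SE 0.11, adjusted p = 0.00245, edgeR interaction term), and by 0.91 (adjusted p = 0.0535) without B-marker cells. In 4 further cases, a number not set against other genes, the groups stood apart in opposite directions in the 2 experiments, while the edgeR interaction did not pass. These were Ctsg for Jarid2 KO minus Ezh2 KO (1.05, adjusted p = 0.349), Csf1r for Jarid2 KO minus Control (1.15, adjusted p = 0.941) and minus Ezh2 KO (1.45, adjusted p = 0.118), and Irf8 for Jarid2 KO minus Control (0.75, adjusted p = 0.239). The transplant Control was 1 library in each of these comparisons with Control, so standing apart only took both Jarid2 KO libraries on 1 side of it. After transplant Csf1r stood at 14.0 and 13.8 CPM in Jarid2 KO against 13.2 in Control. Irf8 stood at 124 and 155 CPM against 123. The Csf1r values and the lower Irf8 value thus lay close to the Control. As given above, DESeq2 called the Csf1r interaction for Jarid2 KO minus Ezh2 KO, and 1 gene for Jarid2 KO minus Control.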

How the results depend on the processing

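Counts are of the 10 genes called, in the order Ezh2 KO minus Control, Jarid2 KO minus Control, Jarid2 KO minus Ezh2 KO. For alternative settings and left-out libraries, here and above, the share of all genes called in the same fit is not given. A higher count there does not show that the 10 genes moved more than others. In baseline sums (1, 0 and 1) DESeq2 called 2 in the first and 1 in the second, no count filter 1 in the second, and a minimum of 10 CPM or the strict cell filter 0 in the first. Without B-marker cells 0 were called in the first and in the last. In transplant sums (1, 0 and 5) DESeq2 called 3, 3 and 9, no count filter 2, 1 and 8, all barcodes 6 in the third, and a minimum of 10 CPM or male cells alone 0 in the first. For the interaction (0, 0 and 1) DESeq2 called 1 in the second and 3 in the third, and without B-marker cells 0 in the third. In baseline shares (2, 1 and 3) the requirement of 2 UMIs gave 1 and 0, leaving out B-marker cells 1, 3 and 2, no thinning 3 in the second and thinning to 3000 UMIs 1 in the third. In baseline amounts no thinning gave 2 and 2 against 0. In transplant shares (6, 0 and 9) the requirement of 2 UMIs gave 0 in the first and 3 in the third, that of 10 UMIs 0 in both, male cells 3 in the first and 1 in the second, and leaving out B-marker cells 4 in the first. In transplant amounts no thinning gave 1 in the third against 0. Raw antibody counts gave 21 of 30 gate pairs against 0, which turned on how many pairs tied at the smallest possible p. Irf8 in baseline share, Ezh2 KO minus Control, reversed to -0.052 without B-marker cells.

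With 1 library left out, counts ran from 0 to 3, 0 to 1 and 0 to 3 in baseline sums, 0 to 3, 0 to 3 and 3 to 9 in transplant sums, and 0 to 2, 0 to 0 and 1 to 5 for the interaction. They ran from 0 to 2, 0 to 2 and 1 to 3 in baseline shares and 1 to 7, 0 to 3 and 3 to 9 in transplant shares, and from 0 to 1 in the first baseline amount. In the baseline myeloid-like class they ran from 1 to 6, 3 to 6 and 1 to 5 against 0 in all 3, and after transplant from 0 to 1 in the third. The cause was not tested. At a cluster resolution of 1.2 no baseline class was named myeloid-like.

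Without the replicate block, baseline sums gave 0, 0 and 1 called genes and baseline shares 0, 0 and 1. A replicate block in the transplant comparison of the knockouts kept the counts at 5 and 9, and crossing the replicate numbers there (correlation -0.148) gave 6. Transplant replicate numbers carry no stated pairing.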
